A study of Mus musculus with 6 samples.

Results

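The genes described here are the nuclear genes of oxidative phosphorylation, taken as the protein-coding genes on chromosomes 1 to 19 whose symbols begin with Ndufa, Ndufb, Ndufc, Ndufs, Ndufv, Uqcr, Atp5, Sdha to Sdhd, or Cox followed by 4 to 8. The rule found 97 of the 20665 protein-coding genes on these chromosomes. They comprise 39 genes named as subunits of complex I, 4 of complex II, 8 of complex III, 17 of complex IV and 17 of complex V, and 12 assembly factors whose symbols begin with Ndufaf or Sdhaf. The rule uses names only, so Ndufa4, now known as a subunit of complex IV, is counted with complex I, together with its paralog Ndufa4l2.

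Complexes I to IV of the inner mitochondrial membrane pass electrons from NADH and succinate to oxygen. All of them but complex II pump protons, and complex V, the ATP synthase, uses the proton gradient to make ATP. Most subunits are encoded in the nucleus, and muscle builds parts of complex IV from isoforms of its own, such as Cox6a2, Cox7a1 and Cox8b. The transcription factors NRF1, GABP, ERRα and YY1 and the coactivator PGC-1α are known regulators of these genes, and myoblasts raise their oxidative capacity as they differentiate. LncMyoD is a long non-coding RNA encoded next to Myod1 and is known for a role in myoblast differentiation.

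DNA bound by LncMyoD was isolated by ChIRP, in which biotin-labelled DNA probes pull an RNA and its attached chromatin out of sonicated nuclei. All samples were primary C57BL/6 myoblasts differentiated to myotubes in 2% horse serum for 2 days, with no untreated or mutant group. The 6 libraries came from odd-numbered probes, even-numbered probes and input DNA, each with 2 replicates. The authors deposited 1 peak list per replicate, with 157214 and 179630 peaks in mm10 coordinates, and no label tells if the replicates were separate cultures.

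A shared region is a stretch covered by overlapping peaks (at least 1 bp) with at least 1 peak from each list, and 91707 lay on chromosomes 1 to 19. A gene was counted when a region lay inside it or within 5 kb of either end. The fold is the authors' enrichment at a peak's summit over the caller's background, given for list 1 and then list 2, and each gene is represented by its best region. To find it, the −log10 q of a region's best peak was turned into a percentile within each list, the 2 percentiles were averaged, and the average gave each region its place, from 1 for the strongest. The lists hold no read counts, so the depth behind a fold is unknown, and intervals on shares are exact (Clopper-Pearson) 95% intervals that cover counting of genes only.

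At 6 members the gene start lay inside a shared region, and at 11 more a region came within 1 kb of it. The 250 bases before the start are shown for 5 of these 17, because they are the DNA that lay in or beside a region. Each runs 5′ to 3′ toward the gene, from RefSeq (GRCm38.p6). Capitals mark matches to motifs of muscle or mitochondrial gene regulation, described after the values. The 250 bases of Cox8b, Atp5g1 and Ndufa7 lay wholly inside a region, as did 224 bases of Sdhd and 157 of Atp5k.
Cox8b, chr7:140900447-140900696, minus strand, the muscle and heart isoform of complex IV subunit VIII: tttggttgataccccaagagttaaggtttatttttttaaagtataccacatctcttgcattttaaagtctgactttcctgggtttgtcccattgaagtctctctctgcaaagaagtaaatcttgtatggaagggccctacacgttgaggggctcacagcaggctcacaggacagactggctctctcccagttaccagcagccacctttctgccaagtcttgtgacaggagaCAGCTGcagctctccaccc
Atp5g1, chr11:96075632-96075881, minus strand, a gene of the ATP synthase c ring: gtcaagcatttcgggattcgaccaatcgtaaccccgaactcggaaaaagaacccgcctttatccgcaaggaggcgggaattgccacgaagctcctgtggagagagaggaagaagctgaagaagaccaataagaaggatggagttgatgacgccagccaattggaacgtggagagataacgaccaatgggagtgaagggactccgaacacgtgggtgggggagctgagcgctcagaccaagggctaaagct
Ndufa7, chr17:33824322-33824571, plus strand, an accessory subunit of complex I: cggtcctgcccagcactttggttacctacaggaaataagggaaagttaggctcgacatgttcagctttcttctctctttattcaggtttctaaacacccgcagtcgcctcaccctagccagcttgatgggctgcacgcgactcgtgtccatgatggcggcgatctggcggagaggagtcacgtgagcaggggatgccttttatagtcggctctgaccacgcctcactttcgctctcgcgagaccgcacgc
Sdhd, chr9:50603850-50604099, minus strand, a membrane anchor of complex II: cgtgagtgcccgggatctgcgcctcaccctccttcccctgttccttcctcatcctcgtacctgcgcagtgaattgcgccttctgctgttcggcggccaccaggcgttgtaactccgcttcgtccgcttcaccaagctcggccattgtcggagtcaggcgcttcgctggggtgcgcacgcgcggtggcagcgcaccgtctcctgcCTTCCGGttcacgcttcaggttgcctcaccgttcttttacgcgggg
Atp5k, chr5:108434400-108434649, minus strand, subunit e of the ATP synthase: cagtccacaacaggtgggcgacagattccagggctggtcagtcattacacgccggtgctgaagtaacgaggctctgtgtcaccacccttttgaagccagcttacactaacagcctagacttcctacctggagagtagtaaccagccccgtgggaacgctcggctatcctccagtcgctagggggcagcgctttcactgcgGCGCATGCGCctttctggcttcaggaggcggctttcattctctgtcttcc

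Of the 97 genes, 67 had a shared region within 5 kb, or 69.1% (95% interval 58.9 to 78.1%). The same was true of 72.2% of all protein-coding genes on these chromosomes, and this background lay within the members' interval. A peak of list 1 lay within 5 kb of 79 members, or 81.4% (72.3 to 88.6%), against 80.6% of all coding genes. A peak of list 2 lay there at 76 members, or 78.4% (68.8 to 86.1%), against 84.3% of all coding genes. Neither list set the members apart from coding genes at large.

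Oxidative phosphorylation genes are short, and long genes hold more regions. The median member spanned 7495 bp (471 to 106064 bp) against 17491 bp for all coding genes, and 80 of the 97 fell in the shorter 5 of 10 equal length classes. Other coding genes weighted to the members' length classes had a shared region at 62.4%, which puts the members 6.63 percentage points higher, with an interval of −3.56 to 15.6 points that takes in 0. In list 1 alone the members' 81.4% stood against 72.9% at their lengths, and in list 2 alone their 78.4% stood against 78.0%. The length-weighted share lay inside the members' interval in each list. With only the 10000 strongest peaks of each list, 5.15% of members had a shared region and the difference turned to −3.21 points.

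**Figure D1:**
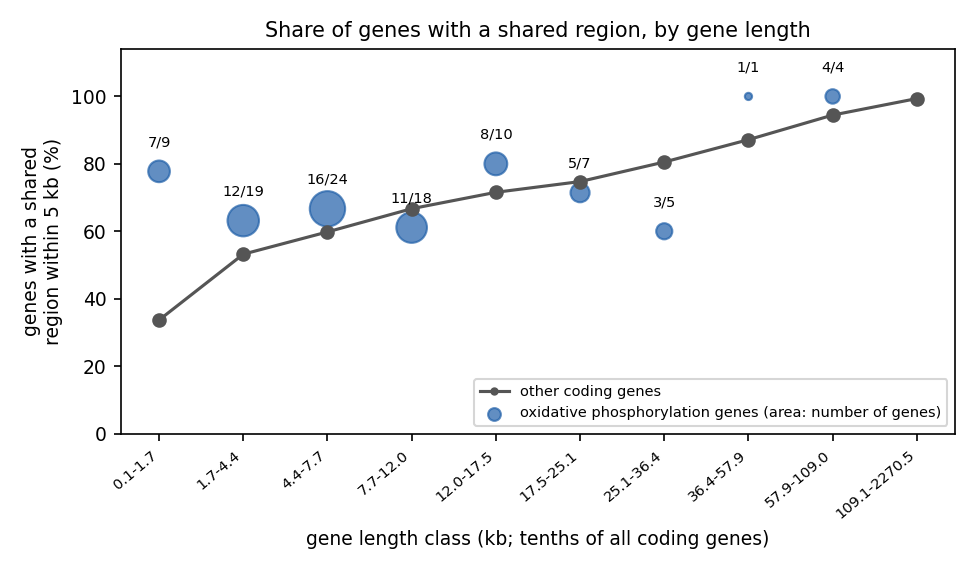
Percentage of genes with a shared region within 5 kb (vertical axis) in 10 gene length classes (horizontal axis, kb), for the 97 oxidative phosphorylation genes (circles, area by number of genes, labelled with counts) and all other coding genes (line). Members lie above the line in the 3 shortest classes and on both sides of it in the longer ones; 7 of 9 members in the shortest class had a region against 33.7% of other genes.

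The gap at the members' lengths was widest among the shortest genes. In the shortest class, 7 of 9 members had a region against 33.7% of the others, and 1150 of the 2067 genes of that class (55.6%) were olfactory or vomeronasal receptor genes. Without those receptor genes the difference was 5.13 points, and without the shortest class it was 2.36 points, both chosen after these values were seen. Members also lay closer to other genes: 77 of 97 (79.4%) had another coding gene within 5 kb, against 50.5% of all coding genes and 54.1% at the members' lengths. Of the 20 members with no such neighbour, 13 (65.0%) had a shared region, which was 3.45 points above other isolated genes of their lengths. The interval of that difference, −20.8 to 23.1 points, was too wide to tell its direction.

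Per gene, the members held 1.14 shared regions, against 2.45 for all coding genes and 1.19 at the members' lengths. No region lay within 5 kb of 2 members among the 111 found. By number, 35 members had 1 region, 23 had 2, 6 had 3 and 3 had 4. Those with 4 were Uqcrc1, Ndufs7 and Ndufb10, and those with 3 included Ndufa13, Ndufa12, Sdha, Sdhaf1 and Atp5k.

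**Figure D2:**
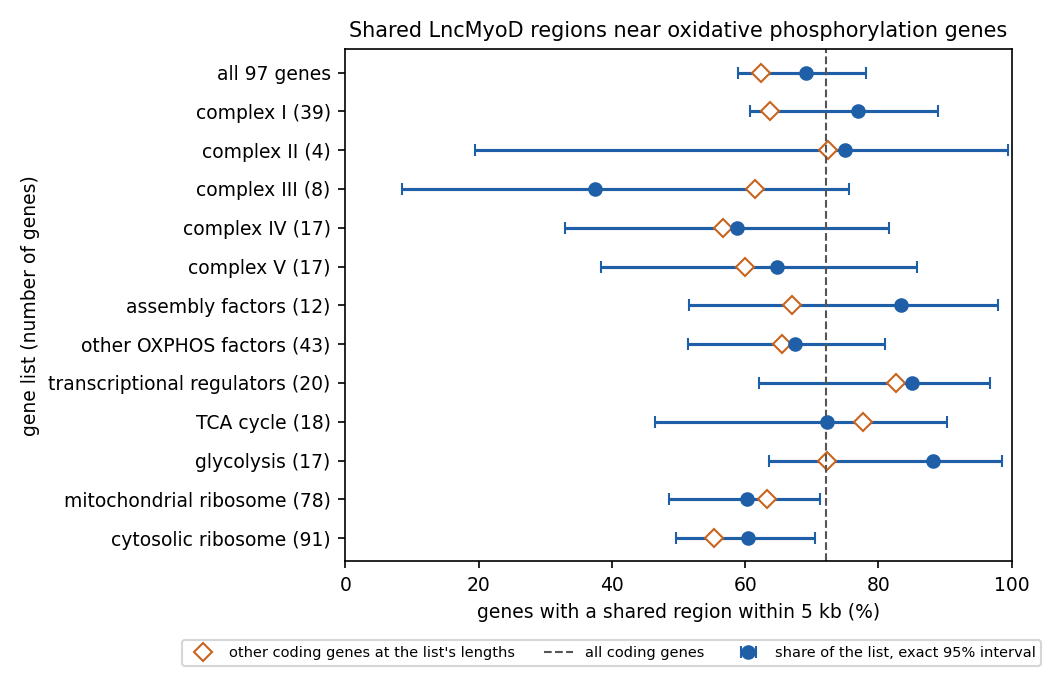
Percentage of genes with a shared region within 5 kb for the 97 genes, their complexes and other gene lists (circles, with exact 95% intervals), beside other coding genes at each list's lengths (diamonds) and all coding genes (dashed line, 72.2%). Complex III has the lowest share, 37.5%, and each diamond lies within its list's interval.

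Among the complexes the share ran from 30 of 39 genes of complex I (76.9%, 60.7 to 88.9%) down to 3 of 8 of complex III (37.5%, 8.52 to 75.5%). At matching lengths, other genes had a region at 63.8% for complex I and 61.5% for complex III, and both values lay within the intervals. Complex IV had 10 of 17 (58.8%, against 56.6% at its lengths), complex V had 11 of 17 (64.7%, against 59.9%) and complex II had 3 of 4 (75.0%, against 72.5%). The assembly factors had 10 of 12 (83.3%, against 67.1%). With so few genes a complex, the intervals of all 6 groups overlapped.

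The strength of the best regions varied widely between members. The 67 best regions had a median fold of 12.9 in list 1 (2.98 to 84.2) and 13.3 in list 2 (3.71 to 69.5). Best regions of other coding genes had medians of 20.1 and 21.9, or 15.4 and 17.1 when weighted to the members' lengths. The members' medians were thus below those of other genes in both lists, and the gap narrowed with length taken into account; it was not tested. Both lists gave at least 20-fold at 17 members and at least 10-fold at 36. Other coding genes were not counted at these cuts. Folds in the lists had a rank correlation of 0.789 over the 67 regions (0.763 over all autosomal shared regions), given as a description, since both lists come from the same protocol. At 11 members the folds differed by more than 2-fold between the lists, a count that was not made for other coding genes.

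**Figure D3:**
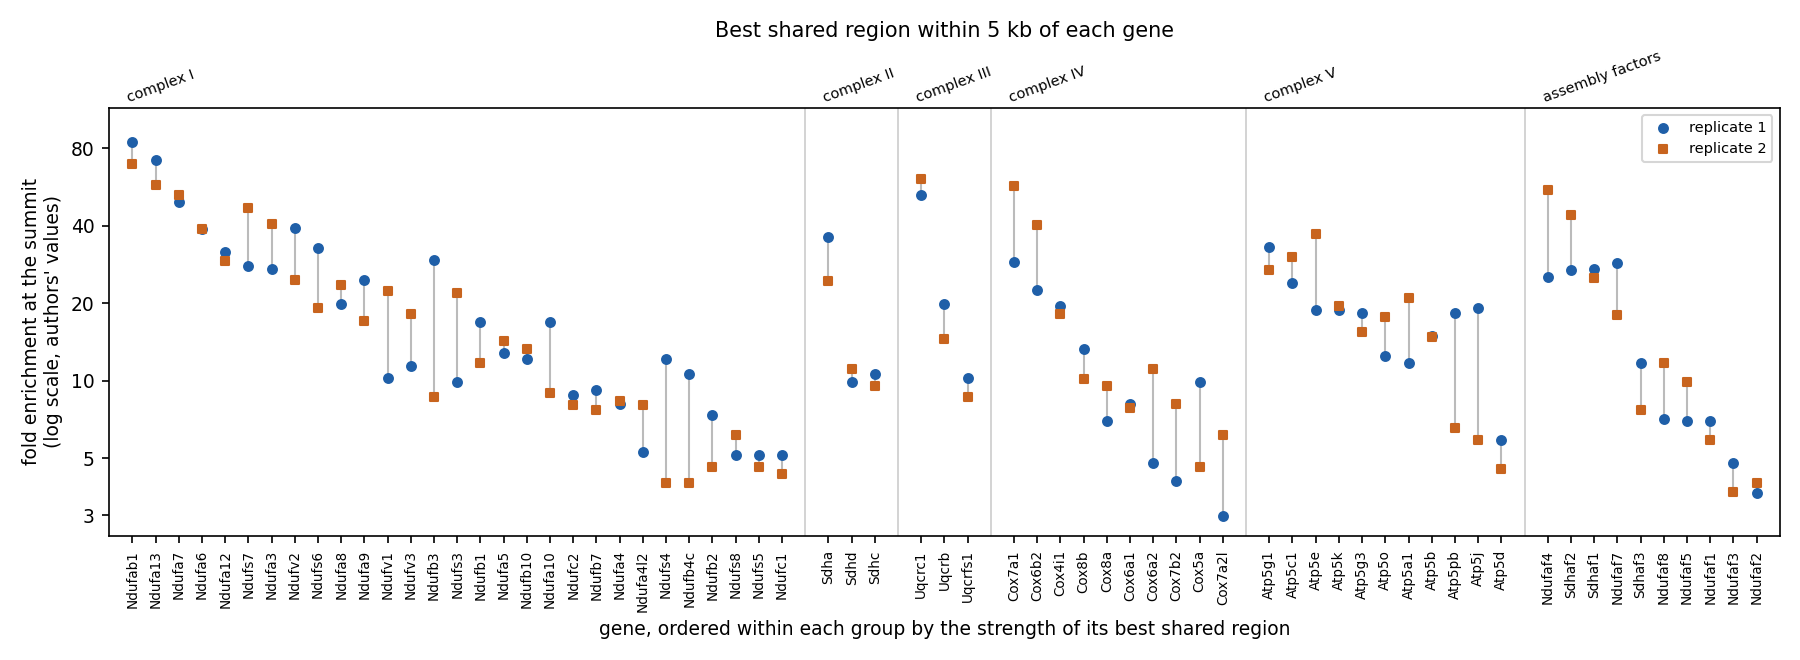
Fold enrichment at the summit (log axis, authors' values) of the best shared region within 5 kb of the members that had one, 1 of them not drawn, in replicate 1 (circles) and replicate 2 (squares), by complex. Values run from 2.98 to 84.2 in replicate 1, and Ndufab1, Ndufa13 and Uqcrc1 are above 50 in both replicates.

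Complex I, the NADH dehydrogenase, held the strongest region of all members. It lay inside Ndufab1, which encodes the mitochondrial acyl carrier protein, at chr7:122088937-122091377, with folds of 84.2 and 69.5 and place 250 among all 91707. A second region in the gene had folds of 20.6 and 25.0, so both lists ranked the same one higher. Ndufa13, also known as GRIM-19, had folds of 72.0 and 57.7 at a region 851 bp past its end (chr8:69891100-69893312). That region lay inside the neighbouring gene Yjefn3, and another, with folds of 21.2 and 46.3, lay inside Ndufa13 itself. Both genes were thus strongly enriched in either replicate, but only the Ndufab1 region had no other coding gene within 5 kb.

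At the accessory subunit gene Ndufa7 a region of 1171 bp covered the start (chr17:33824001-33825171), with folds of 49.6 and 52.6. The region also overlapped Rps28, a ribosomal protein gene that lies next to it, and the window cannot say which gene it belongs to. Ndufa6, another accessory subunit gene, had folds of 38.9 and 38.9 at a region that ran from its last bases into Smdt1. Ndufa12 carried 3 regions inside the gene, with best folds of 31.7 and 29.1. The 4 leading genes of the complex and Ndufa12 were above 29-fold in both lists.

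The core subunits of complex I, which bind NADH, flavin, iron-sulfur clusters and quinone, varied among themselves. The accessory genes above were named for strong or numerous regions, so they are no measure of how uniform accessory genes are. Ndufs7, which holds the last iron-sulfur cluster before quinone, had 4 regions, among them 1 of 3107 bp inside the gene with folds of 28.0 and 46.6. Another lay 2053 bp past its end, with 33.7 and 33.1, and overlapped the neighbouring gene Gamt. Ndufv2, an iron-sulfur subunit, had folds of 39.3 and 24.7 at 4659 bp before its start, near the edge of the window. Ndufv1, which binds NADH and flavin, had folds of 10.3 and 22.2 at 3975 bp past its end, partly in Doc2g. These 3 genes had regions above 10-fold in both lists, but only that of Ndufs7 lay in the gene itself.

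Ndufs3, another core subunit, had folds of 9.92 and 21.9, 1047 bp past its end. Ndufs8, an iron-sulfur subunit, had folds of 5.14 and 6.18 at 3424 bp before its start, inside Aldh3b1. Ndufs1, the largest subunit, had no shared region: a peak of 5.14-fold in list 1 and 1 of 8.03-fold in list 2 did not overlap, and the nearest shared region was 10541 bp away. The core genes described thus ranged from no shared region to folds above 25 in both lists. Ndufb10, an accessory subunit gene with 4 regions, reached only 12.1- and 13.3-fold.

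Complex II, the succinate dehydrogenase, had regions at Sdha, Sdhc and Sdhd. Sdha, the flavoprotein that oxidises succinate, had folds of 36.0 and 24.4, but 4381 bp past its end, reaching into Pdcd6. Its regions inside the gene had 6.24 and 16.7, and 9.18 and 5.25. The membrane anchors were alike in strength, with folds of 10.7 and 9.57 inside Sdhc and of 9.92 and 11.1 just before the start of Sdhd. The Sdhd region began 27 bp before the start and also overlapped Timm8b, which lies beside it. Sdhb, the iron-sulfur subunit, had 2 peaks in list 2 (the best 8.34-fold) and none in list 1.

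In complex III, the cytochrome bc1 complex, regions gathered at Uqcrc1, which encodes a core protein. Its best region, 4168 bp wide (chr9:108946876-108951043), ran over the gene's end with folds of 52.5 and 60.5. A further 1, lying 2771 bp past the end and reaching into the neighbouring gene Col7a1, had 42.6 and 55.6. Another, inside Uqcrc1, had 17.9 and 21.3. Uqcrb had folds of 19.8 and 14.5 inside the gene, and Uqcrfs1, the Rieske iron-sulfur protein, 10.3 and 8.65 past its end. Uqcrc2, the partner of Uqcrc1 in the core, had a single peak of 6.79-fold in list 2 and none in list 1. The small subunit genes Uqcr10, Uqcr11, Uqcrh and Uqcrq, named after their values were seen, had no shared region either.

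Complex IV, the cytochrome c oxidase, has subunits with isoforms that differ by tissue. The strongest region was at Cox7a1, the muscle and heart isoform of subunit VIIa, with folds of 29.0 and 56.8. It was the widest region at any member, 5671 bp (chr7:30184330-30190000), and began 159 bp after the start of a gene of 1860 bp. It therefore ran over most of Cox7a1 and on into Capns1, and its summits lay 3759 bp (list 1) and 1357 bp (list 2) from the start, so that of list 1 was beyond the gene. The widespread isoform gene Cox7a2 had no peak in either list. Cox7a2l, which encodes a supercomplex factor related to both, had folds of 2.98 and 6.18.

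The other pairs gave smaller differences. Cox8b, the muscle and heart isoform, had folds of 13.2 and 10.2 over its start, and the widespread Cox8a had 6.98 and 9.57 over its own. Cox6a2, the muscle and heart isoform, had 4.77 and 11.1, and the widespread Cox6a1 had 8.08 and 7.81. The order of the pair Cox6a1 and Cox6a2 turned between lists, while Cox8b and Cox7a1 were above their partners in both. Among the remaining isoforms, Cox8c of the testis had no peak in either list.

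Cox4i1, the widespread isoform of subunit IV, had folds of 19.5 and 18.2 at 1721 bp from the gene. Cox4i2, the isoform of lung, had 2 peaks in list 1 and none in list 2. Cox6b2, a testis isoform, had folds of 22.5 and 40.3, but the region lay 4907 bp before its start and inside Fam71e2. The list 1 peak of that region began beyond 5 kb, and the list 1 peak within the window had 5.14-fold; no other member had a best region whose fold came from outside the window. Cox6b1, the widespread form, had 2 peaks in list 2 alone. Ndufa4 had 8.08 and 8.34, inside the gene, and Ndufa4l2 had 5.26 and 8.03 at 1936 bp from it, inside Shmt2. Among these isoform genes, Cox7a1, Cox4i1 and Cox6b2 had the regions with the highest folds, and that of Cox6b2 was at the edge of the window.

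**Figure D4:**
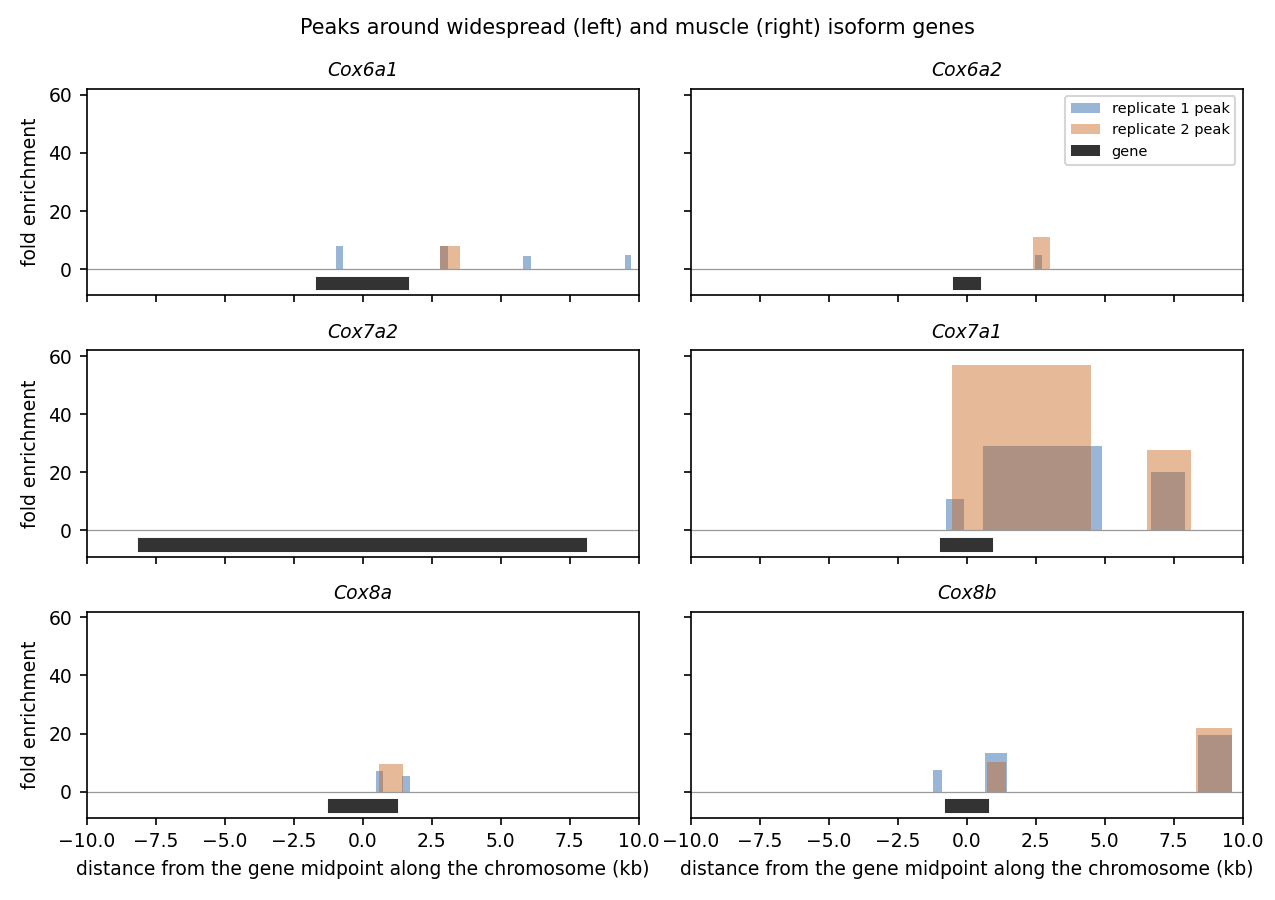
Peaks of replicate 1 and replicate 2 (bars, height: fold enrichment, width: extent of the peak) within 10 kb of the midpoints of 3 pairs of complex IV isoform genes (dark bars), widespread at left and muscle at right. The peaks over Cox7a1 are the tallest (29.0 and 56.8) and none is drawn at Cox7a2.

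Complex V, the ATP synthase, turns on a catalytic head, a central stalk and a ring of c subunits. For the ring, Atp5g1 had folds of 33.1 and 26.9 at a region over its start (chr11:96075586-96076640), with summits at −559 and −560 bp from it. Atp5g3 had folds of 18.4 and 15.4 inside the gene, 103 bp after the start. Atp5g2 had 2 peaks in each list, none of which overlapped a peak of the other. The 3 genes encode the same mature protein, and they differed in whether a shared region was present and where.

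In the head, Atp5a1 (the alpha subunit) had folds of 11.8 and 21.0 inside the gene, and Atp5b (the catalytic beta subunit) had 14.9 and 14.8 at 1651 bp past its end, inside Baz2a. In the stalk, Atp5c1 (gamma) had 23.9 and 30.2 inside the gene and Atp5e (epsilon) had 18.7 and 37.1 at 1413 bp past its end. Atp5k, a subunit of the membrane part, had 3 regions, the best with 18.7 and 19.5 at 3747 bp before its start. A second region of Atp5k began 94 bp before the start and had 10.7 and 29.7. No region of complex V reached 40-fold in either list.

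Of the 12 assembly factors, which build the complexes without staying in them, 10 had a region. Ndufaf4, a complex I factor, had folds of 25.3 and 55.0 at 1884 bp past its end. Sdhaf2, which helps to attach flavin to Sdha, had 26.8 and 43.9 at 2679 bp past its end. Sdhaf1, which serves the iron-sulfur subunit Sdhb, had 3 regions with best folds of 27.2 and 25.0 inside Syne4. Ndufaf7, a methyltransferase that acts in complex I assembly, had 28.6 and 17.9 inside the gene. Ndufaf2, named after its values were seen, had the weakest best region of all members, with folds of 3.67 and 4.02. The best folds of the factors thus ran from 3.67 to 28.6 in list 1 and from 3.71 to 55.0 in list 2, below the strongest subunit genes.

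Of the 30 members without a shared region, 13 had no peak in either list, 8 had peaks in list 1 only, 5 in list 2 only and 4 had peaks in both that did not overlap. The same split was not made for other coding genes, so it describes the members only. Their nearest shared region lay 6510 to 37977 bp away, with a median of 12598.5 bp. For 7 of the 30 it was within 10 kb, so the boundary of 5 kb decided their class.

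Position was described for genes with a known strand. Around the 59 members with a strand and a region, 38.1% of 97 regions lay in the gene, 32.0% past the end, 22.7% before the start and 7.22% over the start. Around other coding genes in the shorter 5 length classes, those shares were 39.3%, 27.6%, 24.9% and 8.19%. Over all 97 members, a region overlapped the gene itself at 41 (42.3%, 32.3 to 52.7%), against 58.1% of all coding genes and 41.6% at the members' lengths. The places of regions at the members thus resembled those at other short genes. Of the 67 best regions, 40 were also within 5 kb of another coding gene and 20 were nearer to that gene, while 27 had no other coding gene within 5 kb. Best regions of other coding genes were not counted this way. Of all 97 members, 79.4% had a coding neighbour within 5 kb, against 54.1% at the members' lengths.

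A shared region came within 1 kb of the start at 17 of the 79 members with a start in the RefSeq table (21.5%, 13.1 to 32.2%). This was 19.1% for all coding genes and 18.4% at the members' lengths. The start lay inside a region at 6 of 79 (7.59%, 2.84 to 15.8%), against 9.04% of all and 8.32% at the members' lengths. The 6 were Atp5g1, Cox8a, Cox8b and Ndufa7, together with Ndufb1 and Atp5j, which were named after their values were seen. In both cases the background lay within the members' interval. Region midpoints fell in the 1 kb before the start at 11.4% of members (5.34 to 20.5%) and 6.55% of other coding genes, and in the 1 kb after it at 11.4% and 8.30%. From 1 to 5 kb the members were lower, with 13.9% against 15.9% before the start and 11.4% against 16.3% after it. From 5 to 10 kb after the start they were higher, with 29.1% (19.4 to 40.4%) against 20.2%, and at that distance before it 15 of 79 members had a midpoint, with an interval of 11.0 to 29.4% that takes in the 20.2% of other genes. The intervals of the members took in the other genes' value in all 6 bins, which were not weighted by length.

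**Figure D5:**
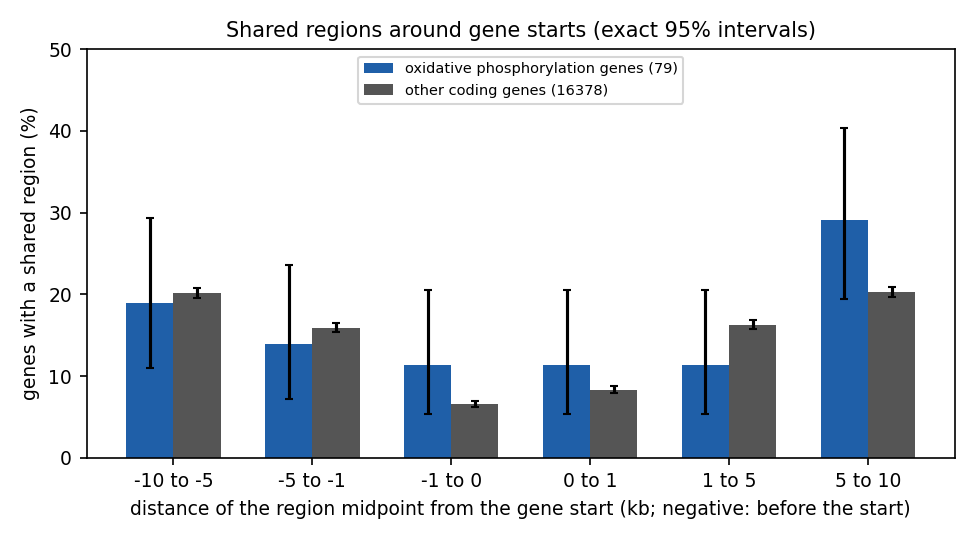
Percentage of genes with the midpoint of a shared region in each interval of distance from the gene start (kb, negative before the start), for the 79 members and 16378 other coding genes with a known start; bars carry exact 95% intervals. Within 1 kb on either side of the start the members' bars are the higher ones (11.4% on both sides, against 6.55% and 8.30%), as they are from 5 to 10 kb after it (29.1% against 20.2%), with wide intervals.

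Promoter sequences of 300 bases (250 before the start and 50 after it) were searched for motifs on both strands. The NRF1 motif GCGCATGCG was in 10 of 79 members (12.7%) and in 2.66% of all 16457 promoters. CCGGAAG, the core bound by ETS factors such as GABP, was in 22 (27.8%) against 13.3%. The ERR motif AAGGTCA was in 8 (10.1%) against 4.69%, and AAGATGG, bound by YY1, in 12 (15.2%) against 7.26%. Motifs of the known regulators of respiration were thus about 2 to 5 times as common in the members as in all these genes.

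E-boxes, CANNTG, the motif of MyoD and its relatives, were in 55 of 79 (69.6%) against 71.8% of all genes with a known start. The form CAGCTG, which is counted in both, was in 6 (7.59%) against 17.6%. Among the 17 members with a region within 1 kb of the start, 13 had CANNTG, 2 had CAGCTG, 7 had the ETS motif, 4 the ERR motif, 1 the NRF1 motif and 1 the YY1 motif. Of the 3148 coding genes with a start that near a region, 72.2% had CANNTG, 19.5% CAGCTG and 15.1% the ETS motif. The ERR motif was in 4.83% of them, the NRF1 motif in 2.38% and the YY1 motif in 6.93%. Median GC content was 58.7% in the members' promoters and 56.7% in all, and the median number of CpG was 20 and 14; their part in the motif shares was not tested.

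In the sequences shown, the capitals in Cox8b are a CAGCTG that ends 14 bp before the start, inside the region. Those in Sdhd are an ETS match on the opposite strand, 40 to 46 bp before the start and also inside the region. Those in Atp5k are an overlapping pair of NRF1 matches, 41 to 50 bp before the start, which fell outside the region that began 94 bp before it. Atp5g1 and Ndufa7 held CANNTG only, which was left in lower case. The summits of the regions lay farther from the start than these matches, at −506 and −511 bp in Cox8b and −453 and −353 bp in Sdhd. A match describes letters and shows no binding.

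The regulators of the pathway were described as a list of 20 genes, of which 17 had a shared region (85.0%, against 82.6% at their lengths). Tfam, whose protein packages mitochondrial DNA and takes part in its transcription, had folds of 59.1 and 49.8. Its region of 4649 bp lay 1350 bp before the start, at place 14. Ppargc1a, which encodes PGC-1α, had 16 regions over its long gene with best folds of 38.9 and 49.4, and the related Ppargc1b had 11 with 30.0 and 26.6. Nrf1 had folds of 12.5 and 17.1 at 309 bp before its start. The place of Tfam, which rests on q, was stronger than that of any oxidative phosphorylation gene, the first of which was Ndufab1 at 250. By fold the order differed, as Ndufab1 (84.2 and 69.5) and Ndufa13 (72.0 and 57.7) were above Tfam in both lists.

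Of the 7 regulators named by the rule, the other 3 were Esrra, Yy1 and Gabpa. Esrra, which encodes ERRα, had folds of 5.13 and 15.4, and Yy1 had 5.14 and 6.18 over its start. Gabpa, the DNA-binding part of GABP, shared with Atp5j the region that covers the start of Atp5j, with folds of 19.1 and 5.87. The best regions of these 3 genes were under 6-fold in at least 1 list.

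Other lists of the same metabolism gave shares on both sides of the length-weighted values. A region lay near 29 of 43 other factors of oxidative phosphorylation (67.4%, against 65.5% at their lengths), 13 of 18 genes of the TCA cycle and pyruvate entry (72.2%, against 77.6%), and 5 of 8 genes of nucleotide and phosphate transport (62.5%, against 67.8%). For glycolysis it was 15 of 17 (88.2%, 63.6 to 98.5%, against 72.3%). For genes of the mitochondrial ribosome it was 47 of 78 (60.3%, against 63.3%), and for those of the cytosolic ribosome 55 of 91 (60.4%, against 55.3%). The intervals of all these lists overlapped that of the 97 members, and no difference between lists was tested.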

How the data were processed

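ChIRP-seq libraries of 6 samples (odd pool, even pool and input, 2 replicates each) were made by tagmentation, per the labels' protocols, which has sequence preferences that peak lists cannot correct. The authors deposited 2 peak lists without headers. Build mm10 and the tools MACS2 2.1.1, Bowtie2 2.3.2 and Picard 2.9.2 are named in the submitters' processing notes. Which libraries entered a list, and with what threshold, is not given in the sources used here; odd, even and input libraries of a replicate carry the same list label. The deposited columns used were the fold enrichment at the summit, a ratio computed by the authors, the −log10 q-value of each peak, and the summit offset in bp. Depth is unknown.

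Here, shared regions were joined overlapping peaks (at least 1 bp). Genes and 300-base promoters came from RefSeq tables (GRCm38.p6), and 79 of the 97 members had a promoter entry, so strand and start were not used for 18. Of the 20 regulators, 43 other factors, 19 TCA genes, 17 glycolysis genes and 8 transport genes listed, all but 1 TCA gene were matched. Other coding genes were weighted over 10 length classes to the members' lengths. No test across conditions was possible, and no p-value is given. Members, gene lists and the naming rule were chosen with earlier results of these data known. The rule names the 4 strongest genes of each group, tissue isoforms, core subunits, members with 3 or more regions, and 7 regulators. One gene that it names is not reported here, though it stays in the counts. Alternatives were other windows, stricter thresholds (−log10 q or fold of at least 5, or the 10000 strongest peaks), stricter overlap, fewer genes, other length classes and either list alone. The scripts were tested on simulated data. Software was pandas 2.3.3, numpy 2.4.6 and scipy 1.17.1 under Python 3.11.15, with matplotlib 3.10.9 for plots.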

Additional observations from a re-analysis of the deposited data

How the results depend on the processing

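The share of members with a shared region, 69.1% within 5 kb, was 50.5% within 1 kb, 44.3% within 5 kb of the start alone, 56.7% at a fold of at least 5, 54.6% with 50% reciprocal overlap, 5.15% among the 10000 strongest peaks of each list, and 78.4 to 81.4% in either list alone. The members' difference from other coding genes of their lengths, 6.63 points, reversed in 2 of 17 alternatives: it was −3.21 points among the 10000 strongest peaks and −3.10 points without length classes. In the other 15 it was 0.0486 to 8.55 points. In list 2 alone it was 0.312 points and in list 1 alone 8.55, so it was larger in list 1. The share with a region within 1 kb of the start, 21.5%, was 44.3% within 5 kb, 7.59% with the start inside the region, and 30.4% in each list alone. Median folds of the best regions were 13.2 in list 1 and 11.7 in list 2 within 1 kb, and 14.9 and 14.5 for 80 structural subunits alone. That set left out the assembly factors and also Ndufab1, Ndufa4l2, Cox7a2l, Ndufb4b and Ndufb4c. With only the assembly factors left out, the medians were 13.2 and 14.2. No paired analysis was possible because each list stands for a whole replicate and no groups with shared numbers are compared. Read depth, the odd and even pools and the input were not analysed here.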

Other observations

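Genes and pseudogenes of the same families that the rule left out gave values of their own. The 3 X-linked members of the complexes, Ndufb11, Ndufa1 and Cox7b, had no peak of either list within 5 kb. All background shares given here are of autosomal genes, and none was made for X-linked coding genes, so this count has no background. Of 16 autosomal pseudogenes whose symbols begin like the members' symbols, 6 had a shared region within 5 kb, and of 3 transcribed pseudogenes 1 had one. All but 1 of them are as short as the shortest of the 10 length classes of coding genes, where 33.7% of genes other than the members had a region. The strongest were at Cox6c2, with folds of 27.2 in list 1 and 27.2 in list 2, and at Cox7c-ps1, with 16.5 and 30.0, named after their values were seen. The parent genes Cox6c and Cox7c had no peak in either list. The other pseudogenes with a region went both ways. Atp5k-ps2, Atp5k-ps4 and Atp5c1-ps had one, and so did Atp5k and Atp5c1. Cox5b-ps and Atp5l2-ps had one, while Cox5b and Atp5l had no shared region. How the authors treated reads that match several copies is not stated in the labels.

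Among regulators outside the naming rule, and named after their values were seen, Pprc1, a relative of PGC-1α, had folds of 89.2 and 68.3 (place 105), and Esrrg, an ERR family member, had 79.7 and 79.1 (place 201) among 22 regions in its long gene. Gabpb1, the partner of Gabpa, and Tfb2m, a mitochondrial transcription factor, had no peak in either list.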
